A study of Mus musculus with 6 samples.

Results

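Acute phase proteins are secreted and plasma proteins whose amounts shift when inflammation begins. Described here are 10 of their genes, chosen by symbol: Saa1, Saa2 and Saa3 (serum amyloid A), Orm1 and Orm2 (orosomucoids), Hp (haptoglobin), Cp (ceruloplasmin), Lcn2 (lipocalin 2), Lbp (lipopolysaccharide binding protein) and Ptx3 (pentraxin 3). They are 10 of the 49568 gene symbols in the table of read counts. All 10 had enough reads for edgeR's low count filter, which left 19199 genes to test.

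RNA of whole lungs was sequenced from 4-month-old female TNF-Tg mice, which overexpress 1 copy of the human TNF gene, and from their WT littermates, which lack it, all on a C57BL/6 background. There were 3 lungs per genotype, from separate mice with 1 library each. The bulk tissue holds every cell of the lung together with its blood, so that fewer cells of a type and less RNA per cell cannot be told apart in it. Levels are counts-per-million values (CPM), with each library's total scaled by edgeR's TMM factor. The totals ran from 25396923 to 32529408 counts, and 3 counts, the smallest level treated as detected, came to between 0.0922 and 0.118 CPM.

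The acute phase response is best known from the liver, where interleukin-6, interleukin-1 and TNF switch hepatocytes to the synthesis of these proteins through STAT3, C/EBP and NF-kB transcription factors. Several of the genes are also transcribed outside the liver: Saa3 in macrophages and fat cells, Lcn2 in neutrophil precursors and epithelium, Hp and Cp in lung epithelium, and Ptx3 in stromal and myeloid cells. The proteins carry lipids, bind small molecules, hold iron and hemoglobin away from microbes, or recognise microbial surfaces.

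Markers of lung tissue were present in all 6 lungs: the summed level of 7 lung genes was 17302 to 22372 CPM in TNF-Tg and 34738 to 41746 CPM in WT lungs. The mouse Tnf gene, which is not the transgene and so does not check the genotype, had 106, 213 and 405 counts in TNF-Tg lungs 1 to 3 and 16, 14 and 35 counts in WT lungs 1 to 3. A pair of libraries stood apart. In TNF-Tg lung 1 the transcript Gm42418 took 5.22% of all counts, against 0.0774% to 0.274% in the other lungs, and WT lung 1 held transcripts of squamous epithelium (3482 CPM summed over 6 genes, against 9.93 to 32.1 CPM in the other lungs). With both of these lungs left out, the same number of acute phase genes, 7, passed the test.

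Of the 10 acute phase genes, 7 were higher in TNF-Tg lungs at an adjusted p-value of 0.05, from the quasi-likelihood test of edgeR adjusted by Benjamini-Hochberg over the 19199 genes, and the other 3 did not pass. In the same test 47.4% of all genes passed, 24.0% as higher and 23.4% as lower. Saa3 rose most, 237-fold, followed by Orm2, Saa1 and Orm1 at 20.5-fold to 24.9-fold, Saa2 at 8.54-fold, Lcn2 at 2.70-fold and Cp at 1.92-fold. The 3 that did not pass were Hp, Lbp and Ptx3. The lungs of the genotypes did not overlap in 9 of the 10 genes, where 58.7% of all genes did not overlap. In 8 of these 9 the TNF-Tg lungs were the higher ones, and in the other, Lbp, the WT lungs were. The median log2 fold change over the 10 genes was 2.26, and over all genes tested it was 0.03.

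**Figure D1:**
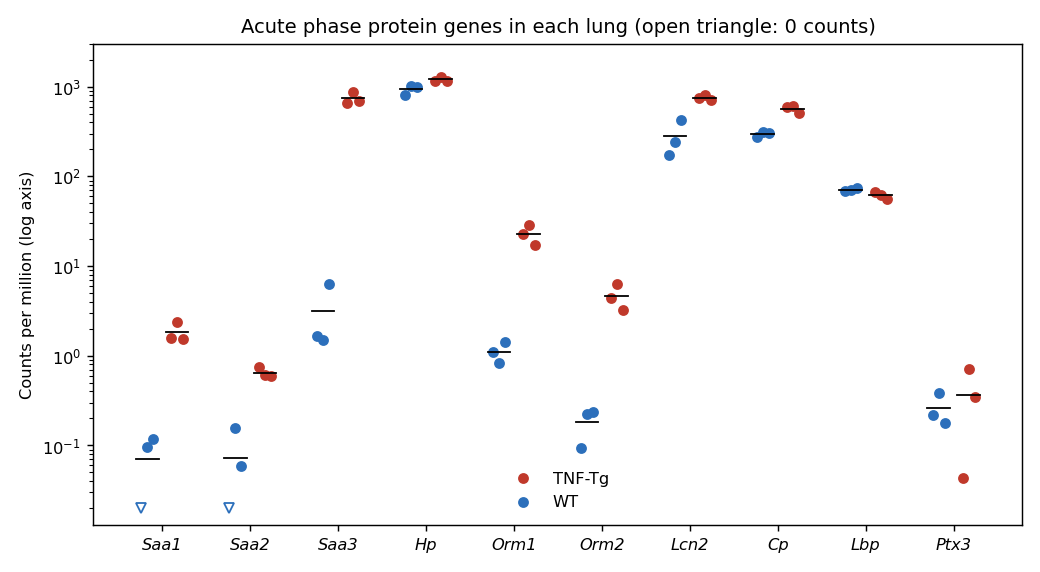
Level of each acute phase gene in every lung, in CPM on a log axis; points are lungs 1 to 3 of WT (left in each pair) and TNF-Tg (right), bars are group means, and open triangles mark lungs with 0 counts. Saa3 lay between 665 and 873 CPM in TNF-Tg lungs and between 1.49 and 6.26 CPM in WT lungs, while Hp stayed between 818 and 1288 CPM in all 6 lungs.

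**Figure D2:**
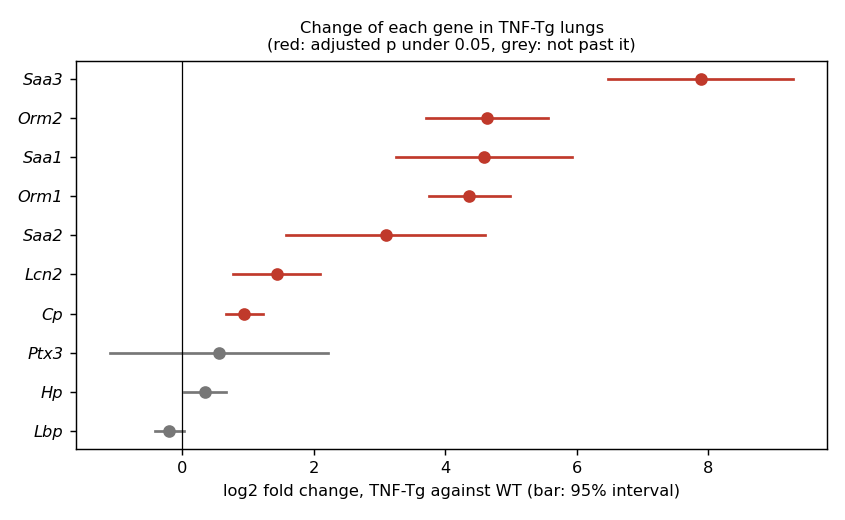
Log2 fold change of each acute phase gene, TNF-Tg against WT, from edgeR, with its 95% interval as a bar; red marks an adjusted p-value under 0.05. The estimates run from -0.20 for Lbp to 7.89 for Saa3, and the intervals of Lbp and Ptx3 cross 0.

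Serum amyloid A proteins are small apolipoproteins of high density lipoprotein. Saa1 and Saa2 are the forms that the liver releases into plasma, and Saa3 is the form made mainly in other tissues of the mouse. The genes lie together on chromosome 7 (GRCm38): Saa3 (ENSMUSG00000040026.8) at chr7:46711998-46715700 and Saa1 (ENSMUSG00000074115.5) at chr7:46740497-46742980, both on the minus strand, and Saa2 (ENSMUSG00000057465.5) at chr7:46751790-46754313 on the plus strand. Their promoters are shown because these neighbours of 1 family rose by between 8.54-fold and 237-fold. Each run holds the 250 bases before and the 50 bases after the start in RefSeq (GRCm38.p6), read in the direction of transcription. Capitals mark matches, on either strand, to TTNCNNNAA, the letters searched for C/EBP, or to GGNNTTTCC, those searched for NF-kB. Other spellings of these motifs were not searched, so stretches in small letters may still resemble them. The windows are chr7:46742931-46743230 for Saa1, chr7:46751583-46751882 for Saa2 and chr7:46715627-46715926 for Saa3.
Saa1: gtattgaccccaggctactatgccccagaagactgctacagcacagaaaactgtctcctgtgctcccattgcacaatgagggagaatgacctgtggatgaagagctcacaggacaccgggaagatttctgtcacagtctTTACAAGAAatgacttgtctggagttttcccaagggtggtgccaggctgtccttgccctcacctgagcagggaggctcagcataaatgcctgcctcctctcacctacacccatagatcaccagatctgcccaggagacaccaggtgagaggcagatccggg
Saa2: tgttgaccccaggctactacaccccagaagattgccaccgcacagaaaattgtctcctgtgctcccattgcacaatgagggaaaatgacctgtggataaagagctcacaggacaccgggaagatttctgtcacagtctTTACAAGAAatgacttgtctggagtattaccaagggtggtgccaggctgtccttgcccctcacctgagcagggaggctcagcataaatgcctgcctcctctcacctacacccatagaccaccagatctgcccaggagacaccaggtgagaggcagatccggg
Saa3: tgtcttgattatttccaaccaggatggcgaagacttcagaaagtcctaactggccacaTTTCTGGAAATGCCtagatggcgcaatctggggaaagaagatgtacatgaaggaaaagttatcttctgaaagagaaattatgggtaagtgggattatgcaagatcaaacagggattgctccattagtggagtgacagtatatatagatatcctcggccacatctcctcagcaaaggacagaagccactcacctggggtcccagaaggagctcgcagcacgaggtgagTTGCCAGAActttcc

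The Saa1 and Saa2 promoters were near copies, with 287 identical and 12 mismatched bases in their alignment (96.0% identity of aligned bases). The Saa3 promoter shared 59.6% of aligned bases with that of Saa1 and 59.7% with that of Saa2. Under the spelling searched, Saa1 and Saa2 each held the C/EBP match TTACAAGAA, 111 and 112 bases before the start. In Saa3, overlapping C/EBP matches began 192 and 191 bases before the start and ran into an NF-kB match, GGAAATGCC on the printed strand, that began 187 bases before it. A further C/EBP match of Saa3 began at base 36 counted along the genome from the start.

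Saa3 had 665, 873 and 702 CPM in TNF-Tg lungs 1, 2 and 3 and 1.64, 1.49 and 6.26 CPM in WT lungs 1, 2 and 3. The TNF-Tg lungs lay close together (coefficient of variation 14.9%), and WT lung 3 stood above the other WT lungs. The group levels were 747 ± 111 CPM (SD, n = 3) and 3.13 ± 2.71 CPM (SD, n = 3), a log2 fold change of 7.89 (SE 0.61, adjusted p = 3.96e-05, 95% interval of the fold 89.3 to 628). Without WT lung 3 the log2 fold change was 8.89.

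Saa1 was far less abundant, with 36, 69 and 49 counts in the TNF-Tg lungs and 0, 3 and 4 counts in the WT lungs. This came to 1.57, 2.36 and 1.53 CPM against 0, 0.0951 and 0.118 CPM, so that the WT lungs lay at or near the floor of detection. The log2 fold change was 4.59 (SE 0.58, adjusted p = 0.000445), with a 95% interval of the fold from 9.54 to 60.6. Saa2 had 17, 18 and 19 counts in the TNF-Tg lungs and 0, 5 and 2 counts in the WT lungs, or 0.742, 0.616 and 0.593 CPM against 0, 0.159 and 0.0588 CPM. Its TNF-Tg lungs differed little among themselves (coefficient of variation 12.3%), and its log2 fold change was 3.09 (SE 0.66, adjusted p = 0.00574). Without WT lung 2, the WT lung with the highest Saa2 count, it was 4.23. The pseudogene Saa-ps, which lies between Saa3 and Saa1, had 8, 8 and 10 counts in the TNF-Tg lungs and 0 counts in each WT lung and was too low to be tested.

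Saa3 made up nearly all serum amyloid A reads of the TNF-Tg lungs: 99.7% of the summed CPM of Saa1, Saa2 and Saa3 in each of them. In the WT lungs its share was 100%, 85.5% and 97.3%, and the group means differed by 5.43 percentage points (exact two-sided permutation test over lungs, p = 0.4, where 3 lungs against 3 cannot give a p below 0.1). That difference was 1.04 points without WT lung 2 and 8.31 points without WT lung 1. Divided by the length of the merged exons, the shares were 98.6% to 98.7% in TNF-Tg lungs and 100%, 58.9% and 89.5% in WT lungs. The low value follows from the long merged exons of Saa3: with the length of the lowest-numbered transcript of each gene, used after the values were seen, the WT shares were 100%, 86.5% and 97.5%. The ratio of Saa1 to Saa2 counts, with 0.5 added to each, was 2.09, 3.76 and 2.54 in TNF-Tg lungs and 0.636 and 1.80 in WT lungs 2 and 3. WT lung 1 had 0 counts of both genes and so gave no ratio, and the other WT ratios rest on at most 5 counts a gene, too few to compare the genotypes. Since 8.96% of the 100-base windows of Saa1 transcripts and 8.63% of those of Saa2 occur in the other gene, reads of the 2 genes may be partly exchanged. No window of Saa3 occurred in another gene.

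Orosomucoids are plasma glycoproteins of the lipocalin fold that carry small lipophilic molecules. Orm1 (ENSMUSG00000039196.2, chr4:63344560-63348163) and Orm2 (ENSMUSG00000061540.3, chr4:63362449-63365878) are neighbours on the plus strand and share 6.95% of their 100-base windows with each other. Orm1 had 23.0, 28.8 and 17.3 CPM in TNF-Tg lungs and 1.11, 0.824 and 1.41 CPM in WT lungs. The groups were far apart, with a log2 fold change of 4.36 (SE 0.27, adjusted p = 1.46e-05, 95% interval of the fold 13.4 to 31.5). Orm2 had 4.41, 6.40 and 3.28 CPM in TNF-Tg lungs and 0.0948, 0.222 and 0.235 CPM in WT lungs. Its WT lungs held 3, 7 and 8 counts, and its log2 fold change was 4.64 (SE 0.41, adjusted p = 6.95e-05). In both genes TNF-Tg lung 2 was the highest and TNF-Tg lung 3 the lowest of their group.

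The ratio of Orm1 to Orm2 counts, with 0.5 added to each, was 5.21, 4.49 and 5.25 in TNF-Tg lungs and 10.1, 3.53 and 5.71 in WT lungs, where Orm2 had 3 to 8 counts. The mean log2 ratios differed by -0.25 (exact two-sided permutation test, p = 0.7, with 0.1 the smallest p possible), which does not show that the proportion stayed the same. The difference was 0.15 without WT lung 1 and -0.61 without WT lung 2. The third gene of the family, Orm3, was at 0.274 to 0.742 CPM in TNF-Tg lungs and 0.412 to 0.601 CPM in WT lungs, with a log2 fold change of -0.02 (SE 0.41, adjusted p = 0.975). The Orm2 promoter (chr4:63362199-63362498, plus strand) is shown because its single match, to the C/EBP motif on the opposite strand, reads TTTGCGCAA, 121 bases before the start.
Orm2: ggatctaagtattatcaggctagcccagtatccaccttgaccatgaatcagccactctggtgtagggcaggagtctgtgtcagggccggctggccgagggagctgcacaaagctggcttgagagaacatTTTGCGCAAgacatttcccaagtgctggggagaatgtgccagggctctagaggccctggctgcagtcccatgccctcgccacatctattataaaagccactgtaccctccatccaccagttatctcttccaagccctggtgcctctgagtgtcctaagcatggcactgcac

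The next 3 proteins act on metals. Lcn2 encodes a lipocalin that binds bacterial siderophores and so withholds iron, and lies at chr2:32384633-32388252 on the minus strand (ENSMUSG00000026822.14). It had 744, 810.5 and 707 CPM in TNF-Tg lungs and 174, 243 and 421 CPM in WT lungs. The TNF-Tg lungs were close together (coefficient of variation 6.94%) and the WT lungs were not (45.6%), with WT lung 3 again the highest. Lcn2 rose by a log2 fold change of 1.43 (SE 0.29, adjusted p = 0.00450), 2.70-fold with a 95% interval from 1.70 to 4.28. Of 12 markers of neutrophils, whose granules hold the protein, 9 were lower and 1 was higher in TNF-Tg lungs, beside 23.4% and 24.0% of all genes. The summed level of the markers was 78.9 to 131 CPM in TNF-Tg lungs against 218 to 375 CPM in WT lungs. Their part in the level of Lcn2 was not tested.

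Cp encodes ceruloplasmin, the copper-carrying ferroxidase of plasma (ENSMUSG00000003617.16, chr3:19957054-20009145, plus strand). It had 601, 604 and 511 CPM in TNF-Tg lungs and 274, 317 and 302.5 CPM in WT lungs. The coefficient of variation was 9.20% in TNF-Tg and 7.27% in WT lungs, and the log2 fold change was 0.94 (SE 0.12, adjusted p = 0.000494). Its exons overlap 108 bases of Hps3 on the opposite strand, of 5800 exon bases in all. Its promoter window at the downstream of 2 RefSeq starts (chr3:19956999-19957298) is shown because it and that of Saa3 were those that held an NF-kB match. The match reads GGTTTTTCC and begins 146 bases before the start, and the other capitals are C/EBP matches.
Cp: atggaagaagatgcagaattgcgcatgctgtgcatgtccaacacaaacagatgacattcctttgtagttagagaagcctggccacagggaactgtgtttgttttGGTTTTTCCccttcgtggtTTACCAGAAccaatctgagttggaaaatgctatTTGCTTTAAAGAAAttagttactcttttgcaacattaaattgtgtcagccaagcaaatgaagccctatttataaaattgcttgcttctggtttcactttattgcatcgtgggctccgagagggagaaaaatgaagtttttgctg

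Hp encodes haptoglobin, which captures free hemoglobin (ENSMUSG00000031722.10, chr8:109575128-109579172, minus strand). It was the most abundant of the 10 genes in CPM in every lung, with 1171, 1288 and 1164 CPM in TNF-Tg lungs and 818, 1029.5 and 998.6 CPM in WT lungs. The genotypes did not overlap, but the log2 fold change of 0.35 (SE 0.14, 95% interval 0.03 to 0.67) had an adjusted p of 0.0713. It passed with DESeq2 (log2 fold change 0.32, adjusted p = 0.0304) and with limma-voom (0.35, adjusted p = 0.0470), and over all alternatives the adjusted p ran from 0.0304 to 0.442. Red cell transcripts were lower in TNF-Tg lungs in 5 of 5 genes, where 23.4% of all genes tested were lower. The summed level of these transcripts was 8166 to 11971 CPM in TNF-Tg lungs against 33523 to 61051 CPM in WT lungs. Their part in the level of Hp was not tested.

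Lbp and Ptx3 encode proteins that recognise microbes. The Lbp protein hands lipopolysaccharide to CD14 and the TLR4 complex (ENSMUSG00000016024.9, chr2:158306493-158332852, plus strand). It had 67.6, 61.9 and 56.6 CPM in TNF-Tg lungs and 68.7, 70.6 and 74.8 CPM in WT lungs. Every WT lung lay above every TNF-Tg lung, though TNF-Tg lung 1 and WT lung 1 nearly met, and the log2 fold change of -0.20 (SE 0.10, 95% interval -0.42 to 0.02, adjusted p = 0.116) did not pass. Ptx3, a long pentraxin that binds complement C1q and microbial surfaces (ENSMUSG00000027832.5, chr3:66219910-66225805, plus strand), had 1, 21 and 11 counts in TNF-Tg lungs and 7, 12 and 6 counts in WT lungs. TNF-Tg lung 1 was the lowest and TNF-Tg lung 2 the highest of all 6. Its log2 fold change was 0.56 (SE 0.72, adjusted p = 0.553), the 95% interval of the fold ran from 0.466 to 4.63, and without TNF-Tg lung 2 the estimate was -0.30. The coefficient of variation was 91.7% in TNF-Tg and 41.3% in WT lungs.

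Levels of different genes were compared per length, as CPM per kilobase of merged exons. In TNF-Tg lungs Hp stood at 898 ± 52.1 (SD, n = 3) and Lcn2 at 824 ± 57.2 CPM per kilobase, and their ranges overlapped. Saa3 (286.5 ± 42.6), Cp (98.6 ± 9.08), Orm1 (29.7 ± 7.44), Lbp (18.8 ± 1.67), Orm2 (6.06 ± 2.04), Saa1 (2.99 ± 0.769), Saa2 (0.997 ± 0.123) and Ptx3 (0.194 ± 0.178) followed with no overlap between neighbours. In WT lungs the order was Hp (705), Lcn2 (305), Cp (51.3), Lbp (21.6), Orm1 (1.44), Saa3 (1.20), Orm2 (0.237), Ptx3 (0.137), Saa1 (0.116) and Saa2 (0.111 CPM per kilobase). There Orm1 overlapped Saa3, and each of the last 4 overlapped its neighbour. Saa3 thus came after Hp and Lcn2 in TNF-Tg lungs and after Orm1 in WT lungs. Its place depended on the length used. The merged exons of Saa3 span 2606 bases and the lowest-numbered transcript of the annotation spans 555 bases. With the shorter length, tried after the values were seen, Saa3 was at 1345 ± 199.8 CPM per kilobase in TNF-Tg lungs, above Hp, and at 5.64 ± 4.89 in WT lungs.

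Promoter windows from RefSeq were used for 7 of the 10 genes, and those of Hp, Orm1 and Lbp were not analysed here. A match to TTNCNNNAA, the letters searched for C/EBP, lay in the windows of 6 of them, Lcn2 being the exception. Those letters occurred in 36.6% of 32851 promoter windows of the same length. Other spellings of the motif were not searched, so Lcn2 is not shown to lack a C/EBP site. NF-kB matches, in Saa3 and Cp, had a share of 5.82% among all windows. No window of the 7 genes held the STAT motif TTCNNNGAA, found in 8.30% of all windows. A match describes letters and is not a measured binding site.

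**Figure D3:**
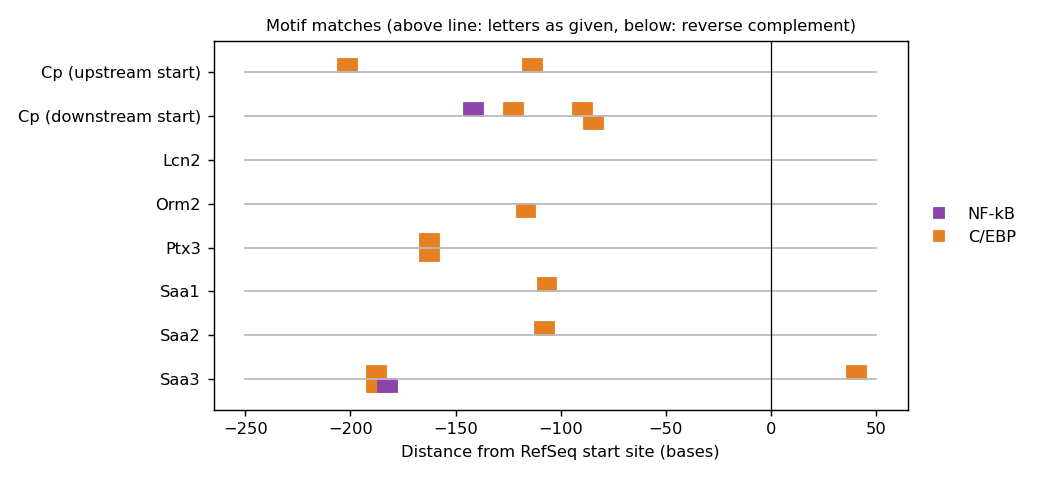
Positions of motif matches in the promoter windows of 7 acute phase genes; the horizontal axis is the distance in bases from the RefSeq start, orange boxes are C/EBP and purple boxes NF-kB matches, above the line for the letters as given and below it for their reverse complement. Saa1 and Saa2 carry their match at almost the same distance, 111 and 112 bases before the start, and the windows of Saa3 and Cp hold both motifs. Only the spellings given in the text were searched.

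Other genes of the response were read from lists. Of 18 further positive acute phase genes, whose products rise in plasma during inflammation, 13 were tested, of which 9 were higher and 2 lower (median log2 fold change 1.39), where 24.0% of all genes tested were higher and 23.4% lower. Itih4, an inter-alpha-trypsin inhibitor heavy chain, rose from 104, 165 and 144.5 CPM in WT lungs to 499, 989.7 and 631 CPM in TNF-Tg lungs (log2 fold change 2.36, SE 0.28, adjusted p = 0.000316). The fibrinogen chain genes Fga (2.29, SE 0.38) and Fgg (2.09, SE 0.25) rose as well, from low levels of at most 1.40 CPM in WT lungs. Hamp, the gene of the iron hormone hepcidin, fell by 3.60 on the log2 scale (SE 0.24, adjusted p = 2.18e-05), from 4.06 to 4.81 CPM to 0.312 to 0.436 CPM. Crp and Apcs, the short pentraxins, had 0 counts in every lung. Of 8 negative acute phase genes, whose products fall in plasma, 5 were tested and 3 were lower (23.4% of all genes), among which was Rbp4, the plasma carrier of retinol, which fell by 2.70 (SE 0.20).

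Of 14 relatives of the acute phase genes, 8 were tested, 4 were lower and the other 4 did not pass (median log2 fold change -0.86). Of all genes tested, 24.0% were higher and 23.4% lower. The 4 lower genes were the neuronal pentraxin Nptx1 (-3.29, SE 0.24), the airway proteins Bpifb1 (-3.29, SE 0.30) and Bpifa1 (-2.21, SE 0.46), and the phospholipid transfer protein Pltp (-1.48, SE 0.13), the last 3 being of the same family as Lbp.

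Among 15 cytokines that induce the response and their receptors, 12 were tested, 6 were higher and 2 were lower, beside 24.0% and 23.4% of all genes. Osm, a cytokine of the interleukin-6 family, was at 22.3, 2.67 and 3.16 CPM in TNF-Tg lungs and 0.727, 0.983 and 1.21 CPM in WT lungs (log2 fold change 3.25, SE 0.84, adjusted p = 0.0134), with TNF-Tg lung 1 far above the rest. Il1b was also highest in TNF-Tg lung 1 (2.46, SE 0.47), and Tnfrsf1b, a TNF receptor, rose by 2.11 (SE 0.09). The 2 lower genes were the receptor genes Il6st (-0.61, SE 0.11) and Lifr (-0.33, SE 0.11). Il6 had 24, 5 and 12 counts in TNF-Tg lungs and 2, 3 and 5 counts in WT lungs and was too low to be tested. Of the 7 acute phase genes that rose, Saa2 was highest in TNF-Tg lung 1 and the other 6 in TNF-Tg lung 2. Of 14 transcription factor and feedback genes, 12 were tested, 9 were higher, beside 24.0% of all genes, and the other 3 did not pass. Relb (2.58, SE 0.16), Nfkb2 (1.71, SE 0.10), Bcl3 (1.63, SE 0.18) and Nfkbia (1.57, SE 0.16) of the NF-kB system moved most, while Stat3 (0.14, SE 0.10, adjusted p = 0.279) and Cebpd (-0.07, SE 0.15, adjusted p = 0.710) did not pass.

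Receptors and partners of the proteins were tested in 16 of 16 cases, with 9 higher and 2 lower, again beside 24.0% and 23.4% of all genes. Mmp9, a gelatinase, rose by 4.99 (SE 0.18), from 14.9 to 19.5 CPM to 451 to 623.5 CPM. C1qa, whose product binds Ptx3, rose by 4.27 (SE 0.20). Fpr2 and Tlr2, receptors that respond to serum amyloid A, rose by 4.10 (SE 0.22) and 3.43 (SE 0.16). The 2 lower genes were Lrp2 (-0.68, SE 0.21) and Scarb1 (-0.54, SE 0.08). The median log2 fold change of this list was 1.10, that of the cytokine list 0.57 and that of the transcription factor list 0.90.

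**Figure D4:**
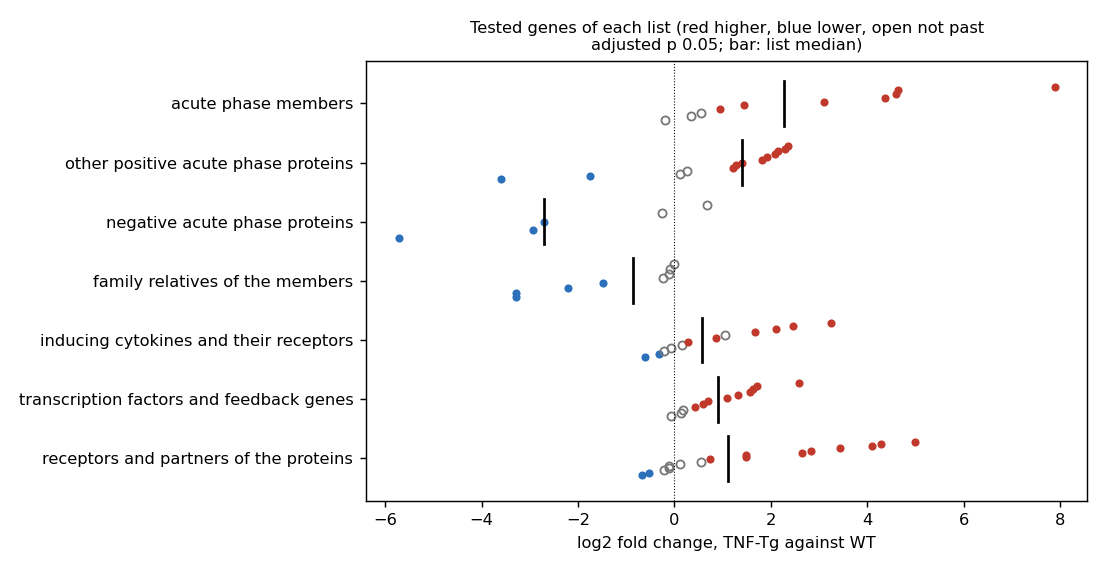
Log2 fold change, TNF-Tg against WT, of each tested gene (point) of the 10 acute phase genes and of 6 related lists; red is higher, blue lower and open not past an adjusted p of 0.05, and the bar is the list's median. The medians run from 2.26 for the acute phase genes to -2.70 for the negative acute phase list.

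Markers of several cell types moved beside the acute phase genes. Of 8 macrophage and monocyte markers, 8 were higher, beside 24.0% of all genes tested. The summed level of these markers was 10519 to 11530 CPM in TNF-Tg lungs against 2873 to 2925 CPM in WT lungs. Most of the WT sum was Lyz2 (2545 to 2606 CPM). Saa3 and Lcn2 were higher in WT lung 3 than in the other WT lungs, and so were the macrophage markers Marco (29.3 CPM, against 8.60 and 11.2 CPM in WT lungs 1 and 2), Cd14 (32.9 against 20.9 and 23.9 CPM) and Cd68 (48.0 against 37.7 and 42.8 CPM) and, by a small margin, Mrc1. The other 4 markers, Lyz2, Adgre1, Csf1r and Ccr2, were not highest there. Of the WT lungs, that lung also had the highest sums of the adipocyte list (214 CPM, against 170 and 115 CPM in WT lungs 1 and 2), the neutrophil list (375 against 315 and 218 CPM), the mesothelial list (501 against 344 and 321 CPM) and, by a small margin over WT lung 1, the airway secretory list (25018 against 24671 and 15145 CPM). Between genotypes the adipocyte sum was 16.1, 16.7 and 137 CPM in TNF-Tg and 115 to 214 CPM in WT lungs, whereas Saa3 was higher in every TNF-Tg lung. Markers of the epithelium and stroma were called lower or not at all: 3 of 8 for alveolar type 2 cells (15944 to 20363 CPM against 22722 to 27362 CPM), 7 of 7 for airway secretory cells (5232 to 6955 against 15145 to 25018 CPM), 7 of 8 for fibroblasts (929 to 983 against 1693 to 2545 CPM), 3 of 5 for mesothelium (130 to 212 against 321 to 501 CPM) and 5 of 5 for endothelium (1241 to 1403 against 3096 to 3858 CPM). Of all genes tested, 23.4% were lower. The part of these cell types in the levels of the acute phase genes was not tested.

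Liver transcripts were scarce in both genotypes. The summed level of 7 hepatocyte markers was 3.93 to 7.12 CPM in TNF-Tg and 2.12 to 2.82 CPM in WT lungs. Of the 4 markers tested, 1 was higher and 2 were lower, beside 24.0% and 23.4% of all genes. Alb, the albumin gene and most abundant transcript of hepatocytes, had 3, 2 and 5 counts in TNF-Tg lungs and 27, 36 and 27 counts in WT lungs. Serpina1c, the marker called higher, had 67, 186 and 123 counts in TNF-Tg lungs and 0, 0 and 2 counts in WT lungs. The part of liver transcripts in the levels of the acute phase genes was not tested.

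**Figure D5:**
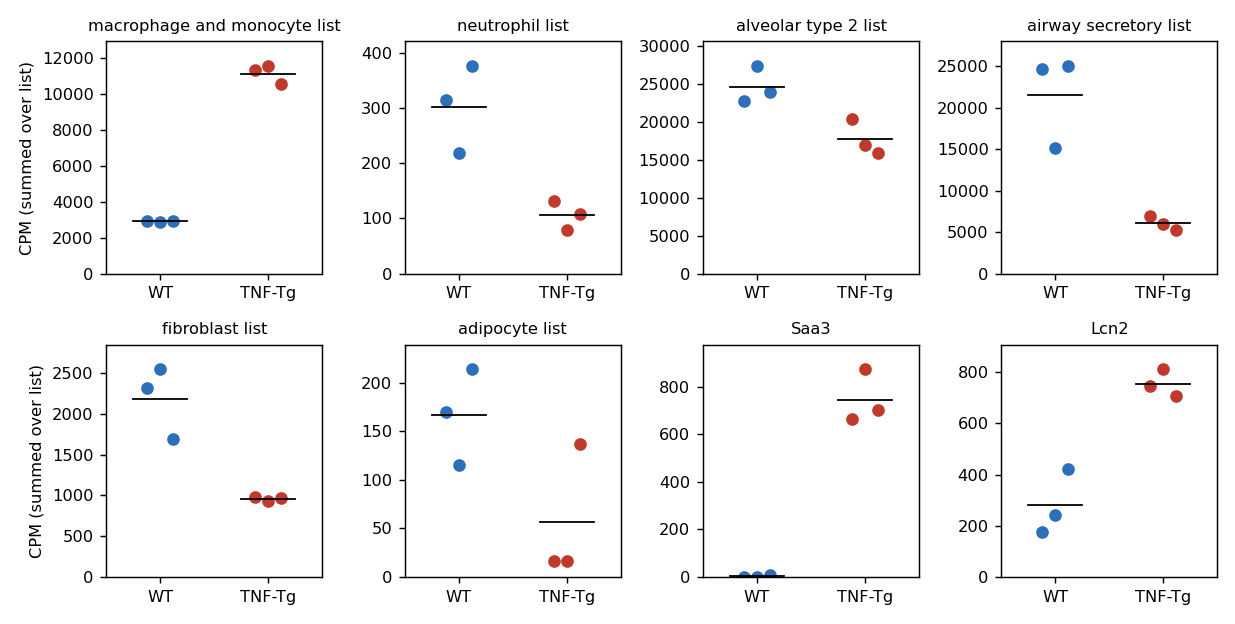
Summed CPM of 6 cell type marker lists, and CPM of Saa3 and Lcn2, in each lung (points; bars are group means; each vertical axis starts at 0). The macrophage and monocyte sum is higher in TNF-Tg lungs, as are Saa3 and Lcn2, and the other 5 sums have lower means there.

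The genes closest in pattern were found by the root mean square difference of log2 CPM, centred on each gene's mean, over the 6 lungs and 15297 candidate genes. Closest to Saa3 were Tspan10 (0.51) and the macrophage receptor Marco (0.54). Orm1 was nearest to Gm2564 (0.14) and C1qa (0.16), Orm2 to Cybb (0.20) and Mcoln2 (0.24), and Lcn2 to H2-Oa (0.09) and Cd37 (0.14). Saa1 was nearest to Gpr176 and to Orm2 (both 0.28), and Saa2 to Tarm1 (0.33) and Susd3 (0.36). For Cp the nearest were Gm4045 (0.04) and Rpl30-ps11 (0.05), for Hp Sdhc and Tomm22 (both 0.05), for Lbp Eci1 (0.02) and Itfg2 (0.03), and for Ptx3 Gm45250 (0.35) and Trmo (0.56). With 6 lungs in 2 groups, the distance follows mainly the size of the difference between genotypes.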

How the data were processed

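Bulk RNA-sequencing counts of 3 TNF-Tg and 3 WT lungs were analysed. The authors made stranded poly(A) libraries, sequenced them single-end at 100 bases, trimmed reads with Trimmomatic and mapped them with STAR (version 2.5.2b) to GRCm38, and deposited raw counts per gene symbol, without normalization. Reads were counted with featureCounts, per the submitters' processing notes. Its version, strand setting and annotation are not given in the sources used here.

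The quasi-likelihood test of edgeR 4.0.16 (under R 4.3.3) followed filterByExpr and TMM, on genotype alone, and p-values were adjusted by Benjamini-Hochberg with a threshold of 0.05. The SE is the size of the log2 fold change divided by the square root of F. No batch term was fitted, since the labels name no batch. Replicates of a genotype differed by more than sampling noise (chi-square per degree of freedom 53.7 to 140). Log2 CPM used a prior count of 2. Lengths, positions and shared windows come from GENCODE M21 and promoters from RefSeq (GRCm38.p6). Alternatives were DESeq2 1.42.0, limma-voom (limma 3.58.1), other normalizations and low count filters, a replicate block, a least absolute log2 fold change of 1, and each lung left out. Same-numbered lungs are different mice. The scripts were tested on simulated data.

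The 10 genes, the lists and the markers were chosen with earlier results of these data known. From each list up to 4 genes with the largest change among those past the threshold, whose mean log2 CPM was 0 or above, were named, with others whose values touch a result. No value in the text comes from the authors' own comparisons.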

Additional observations from a re-analysis of the deposited data

How the results depend on the processing

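The count of 7 acute phase genes was the same with each lung left out in turn, with the replicate block, and with every other alternative except the 4 that follow. With DESeq2 and with limma-voom it was 8, Hp being added, and with at least 10 counts in every lung it was 4 of 6 tested, because Saa1, Saa2, Orm2 and Ptx3 were then not tested. The same filter left 1 of 2 tested negative acute phase genes as called. A minimum absolute log2 fold change of 1 left 4320 genes (1980 higher and 2340 lower) and 6 of the acute phase genes. With the replicate block, 7686 of all genes passed and no acute phase gene changed its call. Same-numbered lungs did not deviate together (correlations across genes -0.15, -0.00 and -0.24, against -0.06 to 0.21 for other pairs). The labels do not say whether the numbers pair the mice, and 3 lungs per genotype are too few to settle it. With each lung left out in turn, 7347 to 9164 genes passed. The log2 fold changes then ran from 7.55 to 8.89 for Saa3, 4.02 to 5.14 for Saa1, 2.52 to 4.23 for Saa2, 4.17 to 4.56 for Orm1, 4.31 to 4.84 for Orm2, 1.16 to 1.85 for Lcn2, 0.86 to 1.00 for Cp, 0.23 to 0.41 for Hp and -0.30 to -0.16 for Lbp. For Ptx3 the range was -0.30 to 0.98, the negative value being that without TNF-Tg lung 2 (adjusted p = 0.788). The Saa3 share differed by 1.04 to 8.31 percentage points with a lung left out, by 15.9 points per length of merged exons and by 5.02 points per transcript length, an alternative chosen after seeing the data, and the difference in the log2 ratio of Orm1 to Orm2 ran from -0.61 to 0.15, positive without WT lung 1; the cause was not tested. With both first lungs left out, an alternative chosen after seeing the data, 6064 of all genes passed. Depth limits Saa1, Saa2 and Orm2, which had at most 8 counts in any WT lung.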

Other observations

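Serpina1c, the hepatocyte marker called higher, is of the alpha-1-antitrypsin family, whose products are plasma protease inhibitors. Genes of this family are near copies, and how its reads were assigned among them was not tested. Among the 7 hepatocyte markers, Alb and Ahsg were called lower. The serum amyloid A relative Saa4 had 2, 6 and 1 counts in TNF-Tg lungs and 0, 1 and 0 counts in WT lungs.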
